A study of Mus musculus with 15 samples.

Results

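Circulating leukemia stem cells (LSC) were compared with those of the bone marrow across every gene that the authors' deposited table lists at 1 or more FPKM in either site. FPKM counts a gene's sequenced fragments scaled by transcript length and sequencing depth. Of 23359 genes in the table, 8858 met this rule: 6982 reached an FPKM of 1 in both sites, 1210 in marrow only and 666 in blood only. The cells came from a murine model of blast crisis chronic myeloid leukemia made by co-expressing the human oncogenes BCR-ABL and NUP98-HOXA9. LSC from peripheral blood (BL) and bone marrow (BM) are the pair compared, and LSC from spleen (SPL) and gonadal adipose tissue (AT) and the normal marrow counterpart (NBM) serve as reference points. The 4 LSC groups all carry both oncogenes and were taken from female mice of 3 months, 12 days after transplantation. The labels give the NBM group the same sex, age and day. RNA-seq libraries numbered 3 in every one of the 5 groups, 15 in all. The labels give no gate that defines an LSC and no link from library to mouse, so the spread behind the authors' q values may be technical.

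BCR-ABL is a constantly active tyrosine kinase, and NUP98-HOXA9 is a fusion that holds myeloid progenitors in an immature, self-renewing state. In the healthy marrow, progenitors pass through a stage of rapid division and primary granule synthesis before they become monocytes or granulocytes. Monocytes then leave for the blood, where classical cells rich in Ly6C can turn into patrolling cells that carry CX3CR1 and depend on the nuclear receptor NR4A1. Mature blood monocytes rarely divide. The sections that follow ask which of these programs differ in level between LSC found in the blood and LSC found in the marrow.

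The deposited tables hold 1 pooled value per gene and group. The error that goes with each FPKM is the authors' own lower and upper bound, 2 standard deviations on either side. Folds below are log2 of BL over BM LSC in the authors' deposited table, ± the standard error implied by the authors' test statistic, and a gene is called when the authors tested it and gave it a q below 0.05. The pooled BL column held 1.95e+07 estimated counts and the BM column 1.65e+07, and the 10 most abundant genes took 8.74% and 8.32% of them. Log2 folds had a median standard error of 0.385, and the smallest fold called had a size of 0.89 on the log2 scale, so smaller differences could not be called at this depth and spread.

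Differences between the sites were frequent and leaned to lower levels in the blood. Of 8747 kept genes with a test, 3354 (38.3%) passed that threshold in the authors' deposited table. Higher levels in BL LSC were called for 1028 (11.8%) and lower levels for 2326 (26.6%). For genes that reached 1 FPKM in 1 site only, the rule itself fixes the direction, and this holds for such members of the lists below. Of 1195 such genes tested in marrow only, 723 were called lower, and of 662 in blood only, 354 were called higher. Among 6890 tested genes at 1 FPKM or more in both sites, 674 (9.78%) were called higher and 1603 (23.3%) lower. The median log2 fold of the kept genes was -0.43, so the split of directions depends on how the sites are scaled. With the folds centred on the median of all tested genes, 1496 genes were called higher and 1376 lower. Upper quartile scaling gave 1523 and 1341, and scaling to total counts gave 1108 and 2120. The list counts below stand beside these backgrounds, and a list is said to depend on the scaling where its direction does. A log2 fold of 3 or more was called for 128 genes, and one of -3 or less for 89.

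**Figure D1:**
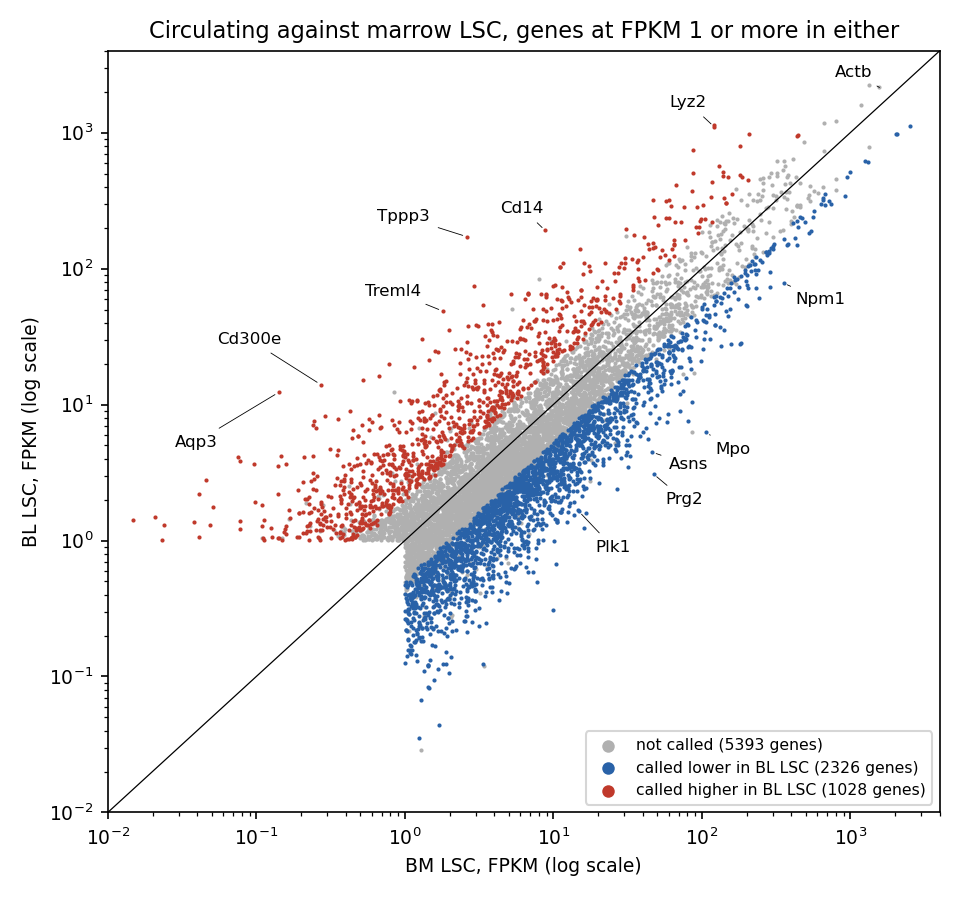
Pooled FPKM of each kept and tested gene in BM LSC (horizontal, log scale) and BL LSC (vertical, log scale), with genes called higher in BL LSC in red, called lower in blue and not called in grey; 87 genes at 0.01 FPKM or less in a group are off the axes. Tppp3, Cd14 and Treml4 lie far above the line of equal level, and Mpo, Prg2 and Plk1 far below it.

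The largest gains in the blood included several genes of monocytes and macrophages. Tppp3, which encodes a tubulin-binding protein (chromosome 8, 105467492 to 105471422 in mm10), stood at 172 FPKM in BL LSC (bounds 105 to 239) and 2.61 in BM LSC (1.53 to 3.69). Its log2 fold was 6.04 ± 0.41 (q listed as 0 per the authors' deposited table). The bounds of the 2 sites lie far apart. In pooled RNA from many cells, more cells of a type and more RNA per cell cannot be told apart. Aqp3, a channel for water and glycerol, stood at 12.3 FPKM against 0.141 and had the largest log2 fold of the named genes, 6.44 ± 0.59 (q listed as 0) in the authors' deposited table. Cd300e, a receptor of monocytes, reached 14.03 FPKM in the blood against 0.271 in the marrow. Treml4, a receptor found on patrolling monocytes and splenic macrophages, reached 48.7 FPKM against 1.80. Other large gains were those of the lipopolysaccharide co-receptor Cd14 (191 against 8.81 FPKM), the endosomal metal transporter Slc11a1 (30.3 against 1.301) and the apolipoprotein Apoc2 (35.6 against 1.97). Each of these was called higher in the authors' deposited table, with log2 folds of 4.44, 4.54 and 4.17. Some of these gains were shared with AT LSC. Cd14, Aqp3 and Apoc2 were also called higher in AT over BM LSC, with log2 folds of 4.58, 5.34 and 3.44. In BL over AT LSC their log2 folds were -0.14, 1.10 and 0.74, and none was called.

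A list of 24 monocyte and dendritic maturation genes showed the same direction almost throughout. Of 21 members kept and tested, 19 were called higher in BL LSC and 0 lower, against 11.8% higher among all kept genes, with a median log2 fold of 2.76. Csf1r, the receptor for the growth factor M-CSF, stood at 54.2 FPKM in the blood (28.6 to 79.9) and 3.38 in the marrow (2.27 to 4.49), a log2 fold of 4.004 ± 0.41 (q listed as 0) in the authors' deposited table. Fcgr4, an activating Fc receptor of patrolling monocytes, stood at 74.3 FPKM (40.5 to 108) against 2.94 (1.74 to 4.13). The angiotensin converting enzyme gene Ace was at 3.64 against 0.0960 FPKM, and Itgam, the CD11b subunit of the complement receptor, at 42.0 against 6.21. Cx3cr1, the fractalkine receptor, was at 20.3 FPKM (9.43 to 31.2) against 3.69 (2.52 to 4.86), with a log2 fold of 2.46 ± 0.45 (q 1.57e-06 per the authors' deposited table). In all of these genes the bounds of blood and marrow did not overlap. Ly6c2 (303 against 145 FPKM) and Ly6c1 (306 against 146), which mark classical monocytes, were called higher with log2 folds near 1 in the authors' deposited table, 1.07 and 1.06; the pair is so alike that reads may be shared between them. The kept members not called were Ccr2, the receptor that brings classical monocytes out of the marrow (43.2 against 26.4 FPKM, q 0.157 in the authors' deposited table), and Spn, which encodes CD43 (19.1 against 17.6). At any level, 19 of 24 members were called higher and 0 lower. Those under 1 FPKM in both sites included Fcgr1 (0.288 against 0.387 FPKM) and Ms4a7 (0.130 against 0.278), neither called. A separate list of 10 dendritic cell markers did not share this direction. Of 5 kept and tested, 1 was called higher, 1 lower and 3 not called, with a median log2 fold of -0.40. The lower call was lost with centred folds.

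The promoters of 3 of these genes are shown because they hold GAGGAAG, a core that the myeloid factor PU.1 is known to bind. This motif was added after the data were seen. Each sequence runs from 250 bases before the RefSeq start site to 30 after it on GRCm38.p6, read 5′ to 3′ on the gene's strand, with GAGGAAG or its reverse complement CTTCCTC in capitals. Fcgr4 lies at chr1:171018676-171018955 (plus strand), Itgam at chr7:128062390-128062669 (plus strand) and Ace at chr11:105967698-105967977 (plus strand).
Fcgr4: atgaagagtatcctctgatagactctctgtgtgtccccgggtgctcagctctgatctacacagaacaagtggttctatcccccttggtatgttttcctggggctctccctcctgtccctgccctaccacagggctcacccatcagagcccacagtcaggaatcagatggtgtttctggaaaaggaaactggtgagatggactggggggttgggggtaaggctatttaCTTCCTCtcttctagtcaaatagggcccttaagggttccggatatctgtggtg
Itgam: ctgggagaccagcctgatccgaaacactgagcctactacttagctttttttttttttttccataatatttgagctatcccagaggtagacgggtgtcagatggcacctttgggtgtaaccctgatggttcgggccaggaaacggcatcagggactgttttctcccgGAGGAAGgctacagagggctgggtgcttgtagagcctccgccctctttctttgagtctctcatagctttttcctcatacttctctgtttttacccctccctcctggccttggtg
Ace: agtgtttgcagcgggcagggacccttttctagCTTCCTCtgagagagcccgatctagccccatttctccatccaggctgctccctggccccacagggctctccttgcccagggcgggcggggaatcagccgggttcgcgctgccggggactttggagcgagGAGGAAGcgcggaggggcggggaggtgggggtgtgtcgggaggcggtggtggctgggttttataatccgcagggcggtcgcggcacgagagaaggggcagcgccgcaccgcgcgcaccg
The search covered 50 bases after the start site and both strands. The motif was in the promoters of 7 of the 16 maturation genes with a RefSeq promoter (43.75%), and in 13.3% of all 14759 promoters matched. It was in 18.42% of promoters of genes called higher and 12.34% of those called lower. Sfpi1, the gene of PU.1 itself, was at 1.63 FPKM in BL LSC and 0.424 in BM LSC and was called higher (log2 fold 1.94 ± 0.52, q 0.00192 in the authors' deposited table). These matches describe letters in a window and do not show binding.

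In several receptor families of myeloid cells most members were called higher. The families were grouped by symbol after the values were seen, and their counts support no test. All 6 kept CD300 receptors, which tune myeloid activation, were called higher, from Cd300lb (10.1 against 2.08 FPKM) to Cd300lf (58.0 against 11.5) and Cd300c (60.03 against 6.46). Of 9 Clec4 lectins, receptors for sugars and damaged cells, 7 were called higher. Clec4a3 stood at 65.4 against 5.17 FPKM and Clec4b2 at 24.5 against 2.57, whereas Clec4d (4.89 against 4.51) and Clec4e (30.9 against 19.5) were not called. The Fc receptors Fcgr2b (92.2 against 25.6 FPKM) and Fcgr3 (116 against 36.9) and the neonatal Fc receptor Fcgrt (37.9 against 2.68) were called higher beside Fcgr4. In the MS4A family 7 of 9 members were called higher, among them Ms4a6c (67.6 against 12.3 FPKM). The exception called lower was Ms4a3 (7.30 against 49.2), a gene of granulocyte and monocyte progenitors. Of 5 TREM receptors 3 were called higher and 0 lower, with Trem3 (11.4 against 5.44 FPKM) and Treml2 (3.40 against 4.202) not called. Of 5 Siglec genes, sialic acid receptors, 2 were called higher and 0 lower, with Siglec5 (8.45 against 6.63 FPKM) among those not called.

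Genes that other mature blood cells express rose too, and the share of such cells is not given by the labels. Of 11 mature neutrophil markers, 8 were called higher and 0 lower, with a summed level of 930 FPKM in BL, 539 in BM, 424 in SPL, 2196 in AT LSC and 1050 in NBM. Trem1, which amplifies inflammatory signals, stood at 39.0 against 3.85 FPKM, and the collagenase Mmp8 at 36.5 against 7.05. Of 12 monocyte and macrophage markers found, 6 were kept, and 6 of these 6 were called higher. The list summed to 303 FPKM in BL, 80.6 in BM, 57.9 in SPL, 202 in AT LSC and 102 in NBM. At any level, 6 of 10 tested were called higher and 0 lower. Cd163 (0.120 against 0.271 FPKM), C1qa (0.583 against 0.461) and C1qc (0.848 against 0.555) were among those not called. Emr1, which encodes the F4/80 antigen, was at 122 FPKM in BL and 40.2 in BM LSC. The part of mature neutrophils and monocytes in these differences was not tested.

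**Figure D2:**
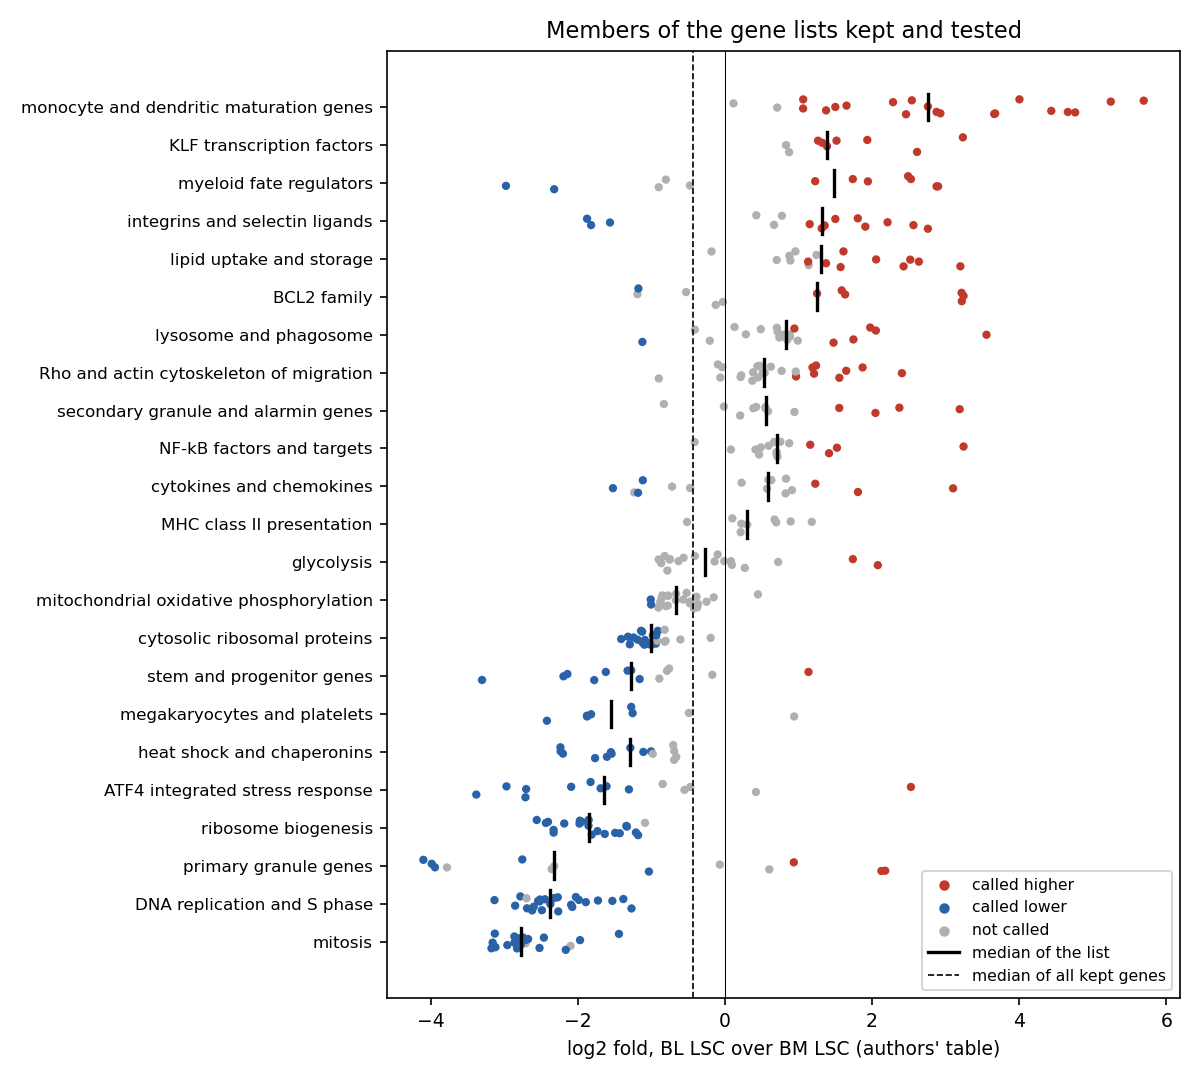
Log2 fold of BL over BM LSC in the authors' deposited table for each kept and tested member of 23 gene lists, 1 point per gene, coloured by call, with the list median as a black bar and the median of all kept genes, -0.43, as a dashed line. Monocyte maturation genes lie to the right with a median of 2.76, and mitosis genes to the left with a median of -2.78.

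Transcription regulators split by family. Krüppel-like factors, which restrain division and guide maturation in myeloid cells, were higher: 7 of 9 kept members were called higher and 0 lower. Klf4, a factor of monocyte differentiation, was at 6.26 FPKM in BL LSC (3.82 to 8.71) and 1.02 in BM LSC (0.624 to 1.42). Klf2, a factor of quiescence, was at 20.3 FPKM (12.5 to 28.1) against 5.31 (3.48 to 7.14), a log2 fold of 1.94 ± 0.37 (q 5.84e-06 per the authors' deposited table). Klf3 reached 7.71 against 0.819 FPKM, while Klf6 (109.97 against 60.03) and Klf9 (4.08 against 2.29) were not called. Nr4a1, the nuclear receptor that patrolling monocytes need (chromosome 15, 101266846 to 101274794), was at 75.5 FPKM (44.3 to 107) against 10.3 (6.96 to 13.6), with a log2 fold of 2.88 ± 0.38 (q 4.63e-12 per the authors' deposited table). Irf5, a driver of inflammatory macrophage genes (29.5 against 5.25 FPKM), Cebpb, a monocyte survival factor (2.12 against 0.368), and the inhibitors of bHLH factors Id1 (25.8 against 10.998), Id2 (219 against 65.7) and Id3 (3.57 against 0.479) were called higher as well. Irf8, which specifies monocyte and dendritic progenitors, stayed under 1 FPKM in both sites (0.863 and 0.544) and was not called, and NBM had 10.9.

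The EGR factors went the other way. Egr1, an immediate early gene that also promotes macrophage fate, stood at 1.36 FPKM in BL LSC and 10.7 in BM LSC, a log2 fold of -2.97 ± 0.37 (q 3.32e-13 per the authors' deposited table). Egr2 (0.356 against 1.78 FPKM) and Egr3 (0.191 against 1.25) were called lower too. Other immediate early genes were split. Fosb, a subunit of the AP-1 factor, was called lower (1.08 against 3.04 FPKM). Dusp1, a phosphatase of MAP kinases (19.9 against 6.98 FPKM), and Fosl2 (2.68 against 1.08) were called higher, and Fos (97.6 against 131 FPKM) and Jun (1.65 against 3.09) were not called. Over the immediate early list 3 of 14 were called higher and 4 lower, and 4 and 3 with centred folds, so it has no direction that holds under both scalings.

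Adhesion genes, integrin subunits among them, were called in both directions. Of 15 kept integrin and selectin-ligand genes, 9 were called higher and 3 lower. Itgb2, the β chain of leukocyte integrins, stood at 289 FPKM in BL LSC and 62.3 in BM LSC, and its partners Itgam and Itgal (25.5 against 9.01 FPKM) were higher with it. Cd44, the hyaluronan receptor, was at 50.6 FPKM (28.6 to 72.6) against 8.56 (5.26 to 11.9), with a log2 fold of 2.56 ± 0.42 (q 5.41e-08 per the authors' deposited table). The selectin ligand gene Selplg was at 163 FPKM against 65.3. The 3 called lower were Itga2b (5.14 against 18.8 FPKM) and Itgb3 (2.21 against 7.77), which pair on platelets and megakaryocyte progenitors, and the laminin receptor subunit Itga6 (0.521 against 1.54). Itga4, a subunit that tethers progenitors to marrow stroma, was at 4.85 against 2.83 FPKM and was not called (q 0.159 in the authors' deposited table).

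Few kept receptors that hold cells in the marrow or draw them out were called without rescaling. Cxcr4, the receptor for the marrow retention signal CXCL12, was at 1.99 FPKM in BL LSC (1.151 to 2.83) and 1.98 in BM LSC (1.23 to 2.73), and NBM had 20.2. Its log2 fold was 0.01 ± 0.41 (q 0.997 per the authors' deposited table). S1pr1, which leads cells out along sphingosine-1-phosphate, was at 1.78 against 0.980 FPKM and was not called. Of 11 kept homing and egress receptors, Cx3cr1, Cxcr2 (7.70 against 2.77 FPKM), the receptor that calls neutrophils into blood, and Ccr1 (31.6 against 14.7) were called higher and 0 lower. With folds centred on the median the count called higher was 8 of 11, so it depends on the scaling. At any level, 5 of 18 tested were called higher and 2 lower. Under 1 FPKM in both sites, S1pr5 (0.561 against 0.0445 FPKM) was called higher. S1pr2 (0.331 against 0.777) and S1pr3 (0.137 against 0.668) were called lower. Among 24 cytoskeletal genes of migration, 8 were called higher and 0 lower. They included the intermediate filament Vim (320 against 60.3 FPKM), the membrane linkers Ezr (111 against 30.3) and Msn (223 against 97.9), and the GTPase Rhoa (85.9 against 37.1). The actin genes Actb (2147 against 1571 FPKM) and Actg1 (1596 against 1174) were not called.

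**Figure D3:**
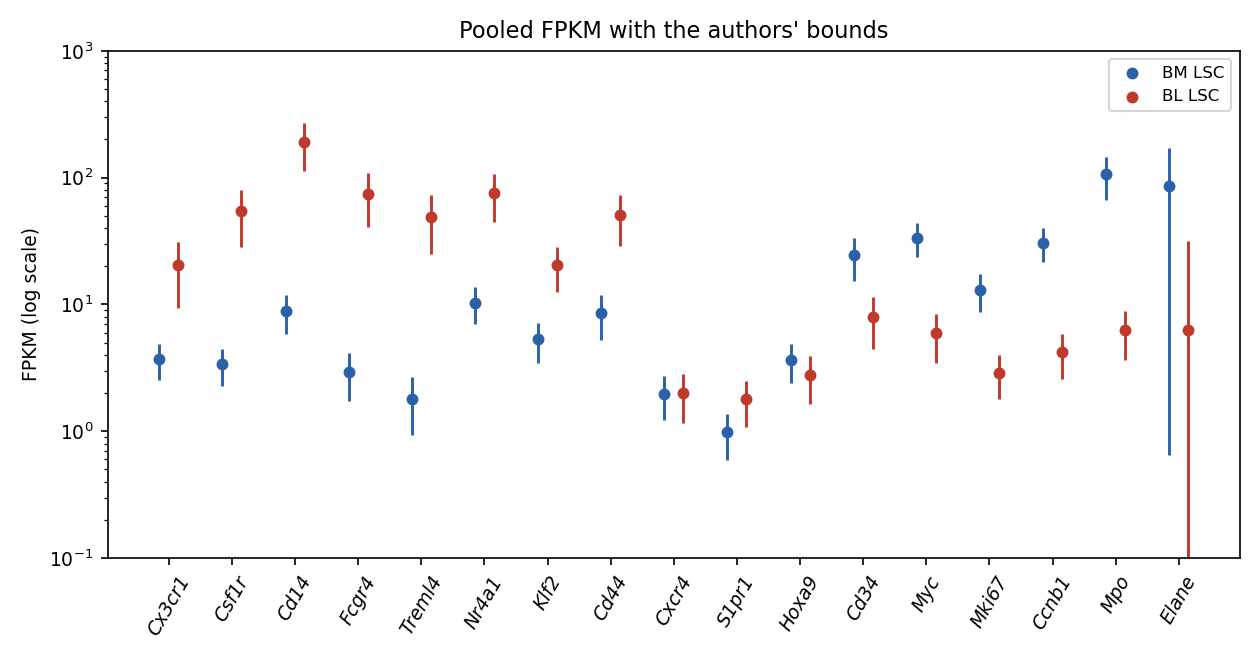
Pooled FPKM (log scale) of 17 genes in BM LSC (blue) and BL LSC (red), with vertical lines for the authors' lower and upper bounds, drawn no lower than 0.1. The intervals are apart for Csf1r, Cd14, Nr4a1, Myc and Mpo, overlap almost fully for Cxcr4 and Hoxa9, and reach down to 0 for Elane in BL LSC.

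Genes of the cell cycle were lower in the blood almost without exception. Of 23 kept mitosis genes 21 were called lower and 0 higher, with a median log2 fold of -2.78, against 26.6% lower among all kept genes. With folds centred on the median 20 of them were still called lower. Of the 25 found, 8 were under 1 FPKM in BL LSC and 2 in BM LSC. For kept members under 1 FPKM in BL LSC, the rule fixes the direction as lower. At any level, 23 of 25 tested were called lower and 0 higher. Plk1, a kinase of mitotic entry (chromosome 7, 122159437 to 122169875), stood at 1.64 FPKM in BL LSC (0.948 to 2.34) and 14.8 in BM LSC (10.3 to 19.3), a log2 fold of -3.17 ± 0.38 (q listed as 0 per the authors' deposited table). Aurka, a spindle pole kinase, was at 1.38 against 12.3 FPKM, and Prc1, which bundles the central spindle, at 1.69 against 14.7. Cdk1, the mitotic kinase, was at 1.45 against 10.2 FPKM and its cyclin Ccnb1 at 4.23 against 30.7. Mki67, the proliferation antigen, was at 2.90 FPKM (1.78 to 4.02) against 13.0 (8.68 to 17.3). The 2 not called were Ccna2 (0.322 against 1.38 FPKM) and Cdc20 (0.738 against 4.82), whose standard errors were wide, 1.85 for the log2 fold of Cdc20.

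Promoters of 3 mitotic genes are shown because they carry 2 elements typical of mitotic genes. The CCAAT box is bound by the activator NF-Y, and the cell cycle homology region (CHR), TTTGAA, is the element through which the DREAM complex is known to repress such genes in resting cells. Both motifs, or their reverse complements ATTGG and TTCAAA, are in capitals, and the windows are cut as above. Prc1 lies at chr7:80294226-80294505 (plus strand), Cdk1 at chr10:69352883-69353162 (minus strand) and Ccnb2, which encodes cyclin B2, at chr9:70421525-70421804 (minus strand).
Prc1: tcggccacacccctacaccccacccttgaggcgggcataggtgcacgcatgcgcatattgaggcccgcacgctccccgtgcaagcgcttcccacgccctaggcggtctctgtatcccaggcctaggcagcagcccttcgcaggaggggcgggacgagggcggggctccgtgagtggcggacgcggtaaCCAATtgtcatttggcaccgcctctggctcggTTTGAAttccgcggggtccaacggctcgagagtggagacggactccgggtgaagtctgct
Cdk1: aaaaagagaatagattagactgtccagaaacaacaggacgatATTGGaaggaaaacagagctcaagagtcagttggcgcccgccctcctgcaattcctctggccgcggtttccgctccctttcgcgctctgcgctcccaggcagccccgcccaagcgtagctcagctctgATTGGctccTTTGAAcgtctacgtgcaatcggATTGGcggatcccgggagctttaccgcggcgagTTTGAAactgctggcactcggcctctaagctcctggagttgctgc
Ccnb2: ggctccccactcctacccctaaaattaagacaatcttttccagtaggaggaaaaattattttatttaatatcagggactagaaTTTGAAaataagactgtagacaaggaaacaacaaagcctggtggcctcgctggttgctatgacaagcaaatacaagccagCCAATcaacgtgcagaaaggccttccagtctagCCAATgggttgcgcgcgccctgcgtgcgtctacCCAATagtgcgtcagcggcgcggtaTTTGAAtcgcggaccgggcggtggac
Of 18 mitosis genes with a RefSeq promoter, 16 (88.89%) held CCAAT, and 13 (72.22%) held TTTGAA. Over all 14759 promoters the shares were 38.91% and 15.54%. Genes of DNA replication held CCAAT in 13 of 18 promoters (72.22%) but TTTGAA in only 2 of 18 (11.11%). Among all genes called lower the shares were 44.30% and 16.67%. Ccnb2 was at 4.81 FPKM in BL LSC and 18.8 in BM LSC, with a log2 fold of -1.97 ± 0.36 (q 1.65e-06 per the authors' deposited table).

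**Figure D4:**
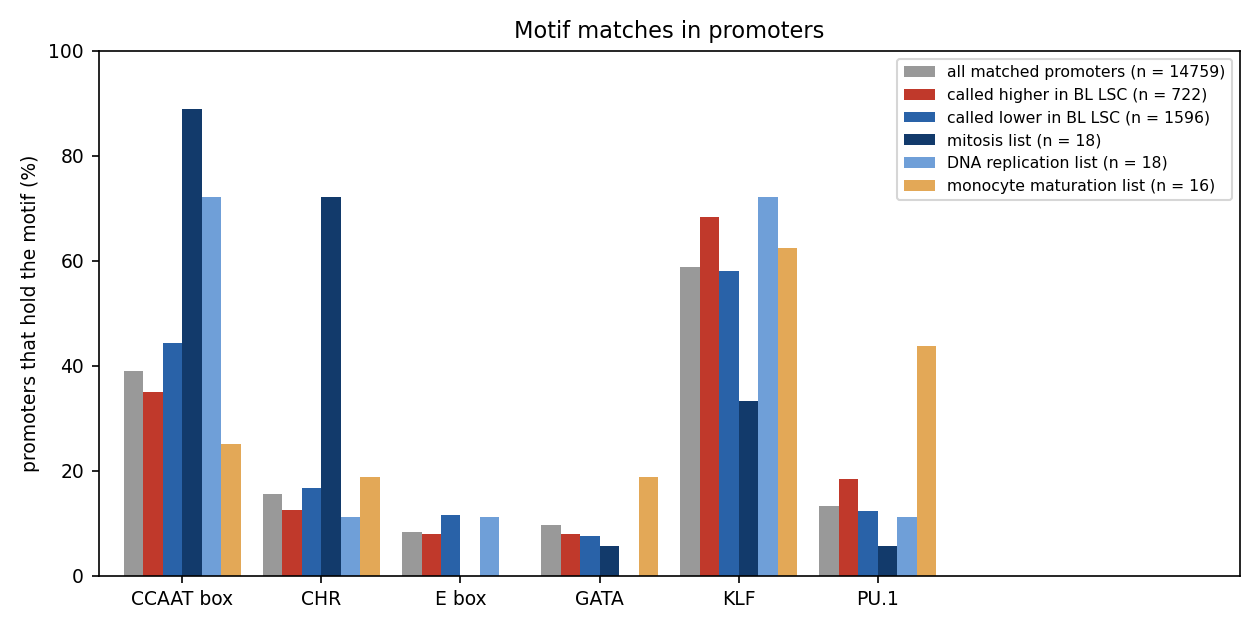
Percentage of promoters of 300 bases that hold each of 6 motifs on either strand, for all matched promoters, for genes called higher or lower in BL LSC and for 3 gene lists, with the number of promoters of each in the key. The mitosis list stands at 88.89% for CCAAT and 72.22% for CHR, against 38.91% and 15.54% of all promoters.

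DNA replication genes followed mitosis genes. Of 25 kept and tested, 24 were called lower and 0 higher, with a median log2 fold of -2.37. Of the 28 found, 9 were under 1 FPKM in BL LSC and 2 in BM LSC, so the rule fixes the direction of some kept members. At any level, 24 of 27 tested were called lower and 0 higher. The replicative helicase subunits Mcm2 to Mcm7 were all called lower, for example Mcm2 at 3.57 against 21.6 FPKM and Mcm5 at 5.31 against 27.5. Pcna, the sliding clamp, had the smallest difference of those called, 15.8 against 38.2 FPKM. The member not called was Rfc4, a clamp loader subunit (2.74 against 17.7 FPKM, standard error 1.93 on the log2 scale). E2f8, a repressor that rises in S phase, was at 0.674 against 10.4 FPKM, a log2 fold of -3.95 ± 0.38 (q listed as 0 per the authors' deposited table). The other kept E2F genes did not follow it. E2f2 (3.81 against 1.06 FPKM) was called higher, and E2f1 (1.80 against 1.29) and E2f4 (0.792 against 1.06) were not called. Among E2F genes under 1 FPKM in both sites, E2f7 (0.218 against 0.740 FPKM) and E2f3 (0.159 against 0.555) were called lower. E2f5 and E2f6 were not called.

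A minority of the brakes on division was called. Of 11 kept CDK inhibitors and antiproliferative genes, 7 were not called, 0 were called lower and 4 were called higher: Cdkn1b, which encodes p27 (4.56 against 1.303 FPKM), Cdkn1a, which encodes p21 (33.5 against 16.2), Cdkn2d (38.8 against 20.1) and Btg1 (24.5 against 7.56). Myc, the growth regulator (chromosome 15, 61985341 to 61990361), was at 5.90 FPKM in BL LSC (3.45 to 8.35) and 33.5 in BM LSC (23.6 to 43.5). Its log2 fold was -2.51 ± 0.37 (q 9.00e-10 per the authors' deposited table). Its antagonists Mxd1 (11.7 against 1.66 FPKM) and Mxi1 (1.11 against 0.383), which compete for the shared partner MAX, were called higher. Max (7.06 against 9.22 FPKM) was not called.

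Genes that build ribosomes were called lower almost throughout. Of 21 ribosome biogenesis genes 20 were called lower and 0 higher, with a median log2 fold of -1.85, and 17 remained called lower with centred folds. Npm1, a nucleolar chaperone, was at 78.2 FPKM in BL LSC and 355 in BM LSC, Ncl, the nucleolin gene, at 10.4 against 40.8, and Polr1b, a subunit of RNA polymerase I, at 1.302 against 7.66. The ribosomal proteins themselves were called lower in 19 of 25 cases, for example Rpl3 at 299 against 744 FPKM. That count depends on the scaling: 2 of 25 were called lower with centred folds, 1 with upper quartile scaling and 13 with total count scaling. Of 17 tRNA synthetases, 13 were called lower and 0 higher, with Iars at 3.97 against 17.0 FPKM and Yars at 3.25 against 13.2. All 9 kept subunit genes of the CCT chaperonin, the folding chamber for actin and tubulin, were called lower, from Cct2 (22.7 against 45.6 FPKM) to Cct3 (21.9 against 66.4). The mitochondrial chaperonin pair Hspd1 (20.9 against 98.0 FPKM) and Hspe1 (14.7 against 69.2) and the HSP90 gene Hsp90aa1 (44.5 against 151) were called lower too. In the heat shock and chaperonin list, which holds these, 10 of 15 were called lower and 0 higher, and 7 and 0 with centred folds. The counts of tRNA synthetases and CCT genes are given without rescaling, so they may depend in part on the scaling.

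The genes of asparagine synthesis, serine synthesis and one-carbon metabolism named here were called lower. Asns, the asparagine synthetase gene (chromosome 6, 7675171 to 7693182), was at 4.46 FPKM (2.68 to 6.24) against 46.4 (32.5 to 60.2), a log2 fold of -3.38 ± 0.36 (q listed as 0 per the authors' deposited table). Phgdh (7.43 against 58.2 FPKM) and Psat1 (7.93 against 51.5), which make serine, were called lower. So were the folate enzymes Shmt1 (1.55 against 13.9), Shmt2 (5.83 against 38.1), Mthfd1 (1.98 against 11.2) and Mthfd2 (7.57 against 32.2). Many of these genes are targets of the stress factor ATF4, whose list had 9 of 14 members called lower and 1 higher with a median log2 fold of -1.65. The 1 called higher was Cebpb. Atf4 itself was at 26.1 against 38.1 FPKM and was not called, and the target Trib3 was at 1.64 against 5.81.

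Few energy metabolism genes were called, and more genes of lipid handling were. Of 23 genes of oxidative phosphorylation 2 were called lower and 0 higher, and none with centred folds. Glycolysis genes were not called in 16 of 18 cases, with Pkm at 368 against 370 FPKM and Aldoa at 364 against 343. The 2 called higher were the lactate exporter Slc16a3 (12.9 against 3.06 FPKM) and Pfkfb4 (3.38 against 1.01). Lipid uptake and storage genes were called higher in 9 of 16 cases and lower in 0. They included Fabp4, a fatty acid carrier (31.8 against 3.45 FPKM), Lpl, the lipoprotein lipase (11.2 against 1.80), the lipid droplet coat Plin2 (170 against 40.8), the scavenger receptor Cd36 (41.3 against 15.9) and the regulator Pparg (4.72 against 0.822). Fabp4 had a log2 fold of 3.20 ± 0.46 (q 3.86e-10 per the authors' deposited table). Of 16 genes that burn fatty acids, 3 were called lower and 0 higher, whereas centred folds gave 0 lower and 1 higher. Lysosome genes were called higher in 6 of 20 cases and lower in 1, with Ctsb at 120 against 30.6 FPKM and Psap, the saposin precursor, at 209 against 50.3. With centred folds the lysosome count was 14 and 0.

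Primary granule genes, made by promyelocyte-like progenitors, were called in both directions. Mpo, the myeloperoxidase gene (chromosome 11, 87793784 to 87804412), was at 6.23 FPKM in BL LSC (3.64 to 8.82) and 107 in BM LSC (66.7 to 147), with a log2 fold of -4.10 ± 0.40 and q listed as 0 in the authors' deposited table. It had the largest loss among the named genes. The eosinophil granule genes Prg2 (3.08 against 47.3 FPKM) and Epx (0.493 against 7.81) were called lower with it. Elane, the neutrophil elastase gene, whose deposited entry runs over chromosome 10 from 79697305 to 80369637 and so past neighbouring genes, was at 6.25 FPKM against 85.7 but was not called, since its bounds ran from 0 to 31.7 in BL LSC and from 0.655 to 171 in BM LSC. Over the primary granule list 5 of 13 were called lower and 3 higher. Centred folds gave 4 lower and 3 higher and upper quartile scaling 4 and 4, so the balance of the list depends on the scaling. Those called higher without rescaling were the eosinophil-associated ribonucleases Ear1 (70.0 against 15.5 FPKM) and Ear2 (53.0 against 12.1), near-identical genes among which reads may be shared, and Ctsc (123.4 against 64.5). Secondary granule and alarmin genes had 4 of 13 called higher and 0 lower. Lyz2, the lysozyme of monocytes, reached 1105 FPKM against 121, and its near-identical neighbour Lyz1 gave 1130 against 121. S100a8 (480 against 320 FPKM), S100a9 (215 against 164) and Ngp (348 against 301) were not called.

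Most stem and progenitor genes kept and tested were called lower, though many were at low levels. Of 20 found in the table, 12 were under 1 FPKM in BL LSC and 6 in BM LSC. Of 13 kept and tested, 8 were called lower and 1 higher, and 5 and 1 with centred folds. For kept members under 1 FPKM in BL LSC, the rule fixes the direction as lower. At any level, 9 of 17 tested were called lower and 1 higher. Cd34, the progenitor surface antigen, was at 7.92 FPKM in BL LSC (4.49 to 11.4) and 24.3 in BM LSC (15.2 to 33.4), a log2 fold of -1.62 ± 0.41 (q 0.00110 per the authors' deposited table). Gata2, a factor of stem cells and mast cell progenitors, was at 2.39 against 10.9 FPKM, and Myb, which keeps progenitors cycling, at 0.255 against 2.51. The 1 called higher was Ly6a, which encodes SCA-1 (231 against 105 FPKM). Kit, the stem cell factor receptor, was not tested by the authors and stood at 2.26 FPKM (1.36 to 3.15) against 2.93 (1.99 to 3.86), with 10.4 in NBM.

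Of 7 HOX genes and partners, 1 was called. Hoxa9 was at 2.78 FPKM in BL LSC (1.65 to 3.90) and 3.65 in BM LSC (2.40 to 4.90), a log2 fold of -0.39 ± 0.38 (q 0.548 per the authors' deposited table), and NBM had 0.771. Hoxa7 (4.65 against 5.33 FPKM) and Pbx3 (5.01 against 6.003) were not called either. Meis1, the partner of HOXA9, was the member called, at 5.01 FPKM (2.56 to 7.46) against 12.1 (7.77 to 16.5). Its call was lost with centred folds, where its q was 0.147. Whether deposited Hoxa9 reads include the human fusion was not tested.

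Markers of the megakaryocyte lineage were mostly called lower, and those of erythroid and mast cells were mixed. Megakaryocyte markers were called lower in 6 of 8 cases and higher in 0, including Pf4, a platelet chemokine (9.52 against 34.9 FPKM), and Gp1ba (0.693 against 3.70). Of 8 erythroid markers 3 were called lower, 1 higher and 4 not called. Car1, an early erythroid carbonic anhydrase (11.9 against 71.1 FPKM), Car2 (94.0 against 287) and Epor (0.268 against 1.96) were called lower, whereas Alas2, the late heme synthesis gene (4.24 against 0.845), was called higher. Globin was present in both sites, with the β-globin entry Beta-s at 468 against 376 FPKM and Hba-a2 at 174 against 30.7, and neither was called. Summed erythroid markers came to 870 FPKM in BL, 887 in BM, 1148 in SPL, 390 in AT LSC and 131 in NBM. Of 11 mast cell and basophil markers 5 were called lower, 1 higher and 5 not called. Mast cell tryptases were high in the marrow only: Tpsb2 was at 16.1 FPKM in BM LSC, 1.23 in BL, 0.514 in SPL, 0.846 in AT LSC and 0.581 in NBM. Tpsab1 (0.486 against 5.06 FPKM) and the mast cell protease Cpa3 (30.4 against 113) were called lower too, while the basophil protease Prss34 (448 against 204) was called higher. The endogenous retroviral gene Erv3 had a similar pattern to the tryptases, at 26.9 FPKM in BM LSC, 2.38 in BL, 3.61 in SPL and 1.404 in AT LSC.

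Markers of B cells and stromal cells were low, and some T and NK cell markers were not. B cell markers summed to 5.35 FPKM in BL LSC and 4.55 in BM LSC, with 9 of 10 under 1 FPKM in each. All 14 stromal and adipose markers were under 1 FPKM in BL LSC, and 13 of 14 in BM LSC. T and NK cell markers summed to 320 against 464 FPKM, most of it from Nkg7 (194 against 203) and Gzmb (96.9 against 238), with 7 of 16 under 1 FPKM in BL LSC. The adhesion receptor Cd2 (4.30 against 0.619 FPKM) and the granzyme Gzma (5.89 against 1.36) were called higher, and Gzmb and the kinase Lck (4.57 against 9.17) lower. Of 9 kept T and NK markers this made 2 higher and 2 lower. Centred folds and upper quartile scaling each gave 3 and 0, and total count scaling 2 and 1, so the lower calls depend on the scaling. The part of T and NK cells in the results was not tested.

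Inflammatory signals did not move as 1 block. Ccl6, a myeloid chemokine, was at 743 FPKM in BL LSC and 86.6 in BM LSC, and the cytokine Osm, oncostatin M, at 118 against 33.7. Ccl9 (152 against 64.8) was the remaining member called higher. Tnf (1.00 against 2.88 FPKM), Csf2, which encodes GM-CSF (2.77 against 5.996), and the monocyte attractant Ccl2 (1.66 against 3.75) were called lower. Of 16 cytokine and chemokine genes this made 3 higher and 3 lower, and 5 and 0 with centred folds. NF-κB factors and targets had 4 of 16 called higher and 0 lower, and 10 and 0 with centred folds. Interferon response genes had 4 of 19 called higher, among them Irf7 (11.3 against 4.47 FPKM) and Rsad2 (3.32 against 0.745), and 1 lower, Bst2 (9.14 against 18.4). That lower call was lost with all 3 rescalings: centred folds and upper quartile scaling gave 6 higher and 0 lower, and total count scaling 4 and 0. No antigen presentation gene of MHC class II was called, though Cd74, the invariant chain, stood at 384 against 169 FPKM (q 0.0502 per the authors' deposited table). With centred folds 4 of 9 class II genes were called higher. The MHC class I list had 2 of 12 called lower and 0 higher, and 0 and 2 with centred folds.

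Some cytokine receptor and BCL2 family genes were called higher. Of 20 cytokine receptor and JAK-STAT genes 7 were called higher, 0 lower and 13 not called. Il6ra, a subunit of the interleukin-6 receptor, was at 1.403 against 0.0776 FPKM, the feedback inhibitor Socs3 at 1.56 against 0.273, and the interferon-γ receptor Ifngr1 at 153 against 46.8. Within the BCL2 family 6 of 11 were called higher and 1 lower. The A1 genes Bcl2a1a (103 against 11.03 FPKM), Bcl2a1b (111 against 11.7) and Bcl2a1d (103 against 11.1), survival factors of myeloid cells, are near-identical copies whose values are not independent. The others called higher were the survival factor Mcl1 (15.3 against 4.92 FPKM) and 2 genes that promote cell death, Bcl2l11, which encodes BIM (1.04 against 0.436), and Pmaip1, which encodes NOXA (52.1 against 17.3). The survival gene Bcl2 stood at 6.48 against 14.8 without a call (q 0.0759 in the authors' deposited table). The member called lower was Bid (7.70 against 17.4 FPKM), whose call was lost with centred folds.

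Redox, epigenetic and clock genes gave smaller sets. Hmox1, the heme oxygenase gene, was at 69.0 against 15.5 FPKM and Gsr, glutathione reductase, at 23.8 against 5.60, both called higher. Abcg2, a drug and heme exporter of stem cells, was at 2.1995 against 7.57 and called lower. Of 11 DNA methylation and Polycomb genes 5 were called lower, 2 higher and 4 not called. Those lower included the maintenance methyltransferase Dnmt1 (3.75 against 16.4 FPKM), its targeting factor Uhrf1 (3.16 against 15.3) and the Polycomb methyltransferase Ezh2 (1.07 against 3.21). Tet2, which oxidises methylated cytosine, was at 3.57 against 1.11 FPKM and called higher, with a log2 fold of 1.69 ± 0.37 (q 7.60e-05 per the authors' deposited table). Of 4 kept clock genes 3 were called higher: Per1 (1.91 against 0.490 FPKM), Nfil3 (8.92 against 3.21) and Bhlhe40 (99.0 against 37.1). The hour of sampling is not given in the labels.

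The other groups place the 2 sites on wider scales. The comparisons BL over AT and BL over SPL share the BL libraries with BL over BM, and SPL over BM shares the BM libraries, so their values are set side by side only. Of the kept genes, BL over AT called 2.85% higher and 2.48% lower, BL over SPL 11.7% and 27.1%, and SPL over BM 0.817% and 1.62% in the authors' deposited table. The maturation list had 6 of 21 called higher and 0 lower in BL over AT, 17 of 21 and 0 in BL over SPL, and 2 and 2 of 20 in SPL over BM. The mitosis list had 0 of 23 called higher and 12 lower in BL over AT, 0 and 21 in BL over SPL, and 0 and 0 in SPL over BM. Cx3cr1 was at 20.3 FPKM in BL, 8.65 in SPL, 3.69 in BM and 3.59 in AT LSC, so that AT and BM LSC shared its lowest level. Its log2 fold of BL over AT LSC was 2.501 (q 1.94e-04 per the authors' deposited table). Csf1r was at 54.2 FPKM in BL and 22.9 in AT LSC, but 5.02 in SPL and 3.38 in BM LSC, with 22.4 in NBM. Mpo was at 6.23 FPKM in BL LSC against 107 in BM, 120 in SPL and 113 in AT LSC and 524 in NBM, with a log2 fold of BL over AT LSC of -4.19 (q 1.77e-11 per the authors' deposited table). BL LSC had the lowest Mpo level of the 5 groups.

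Plk1 was at 1.64 FPKM in BL and 4.29 in AT LSC, and at 14.8 in BM, 21.9 in SPL LSC and 17.0 in NBM. Its log2 fold of BL over AT LSC was -1.38 (q 0.0298 per the authors' deposited table). Asns was also lowest in BL LSC, at 4.46 FPKM, with 15.8 in AT, 40.1 in SPL and 46.4 in BM LSC. The ATF4 list had 8 of 14 called lower in BL over AT and 0 higher. Of 16 cytokines and chemokines, 9 were called lower in BL over AT and 0 higher. Csf2 was at 79.8 FPKM in AT LSC, 5.996 in BM, 2.77 in BL and 2.52 in SPL LSC. Of 16 lipid uptake genes 0 were called higher and 2 lower in BL over AT, and Lpl was at 11.2 and 10.96 FPKM. Car1 was highest in the spleen, at 239 FPKM against 71.1 in BM LSC, 11.9 in BL and 8.95 in AT LSC.

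**Figure D5:**
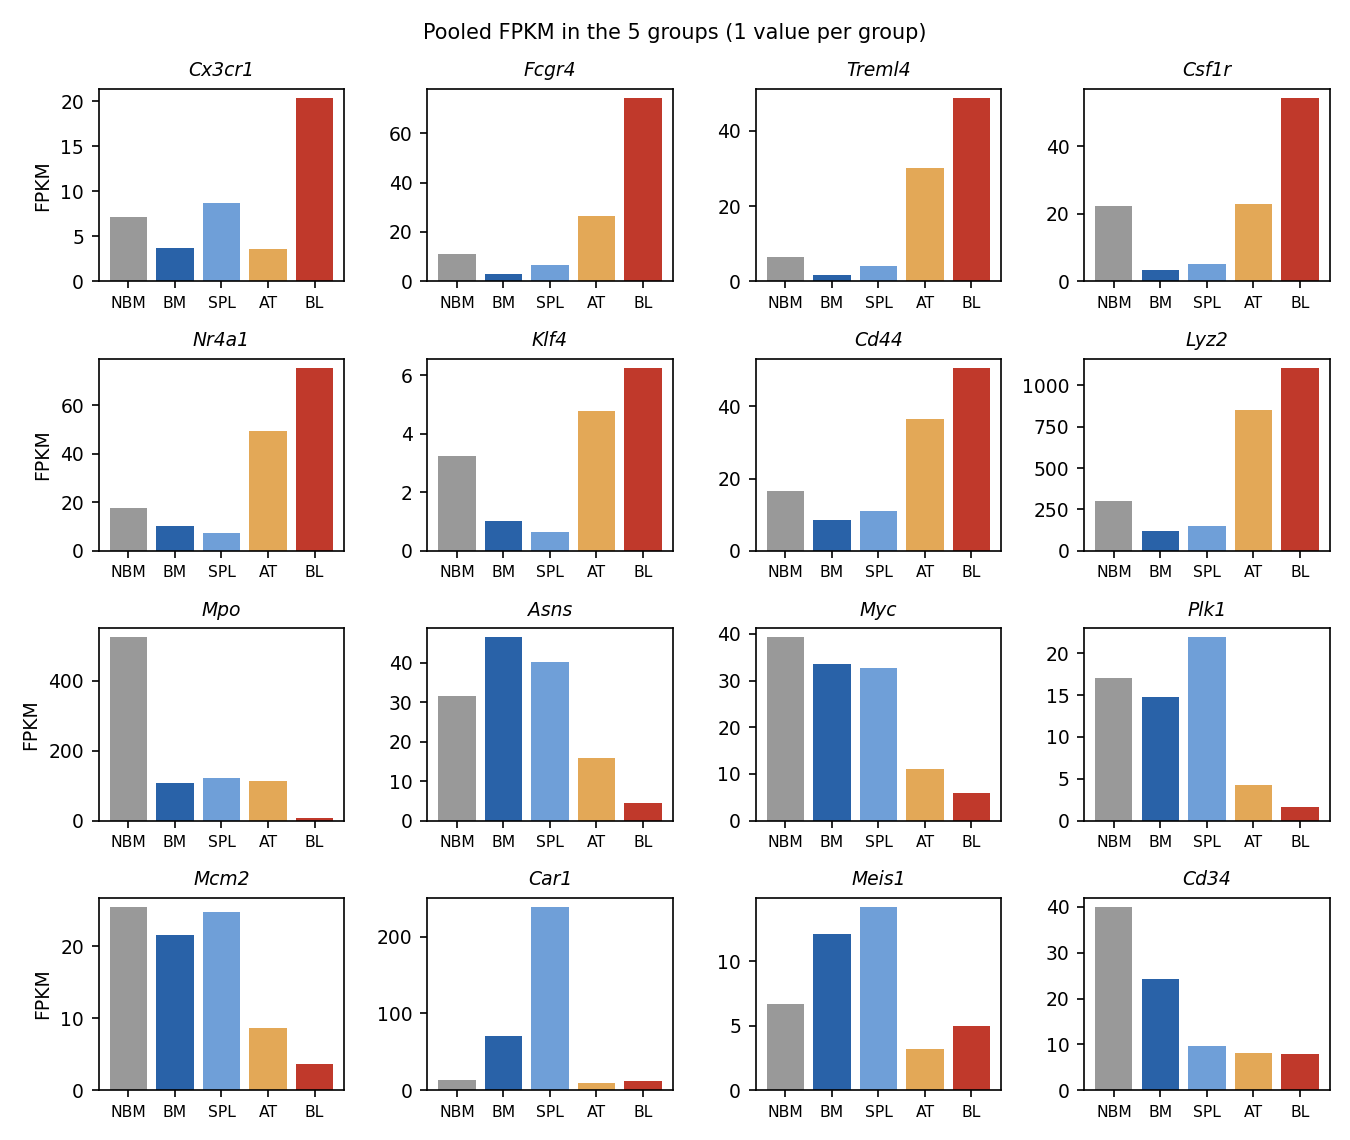
Pooled FPKM (linear scale from 0, 1 value per group) of 16 genes in NBM and in BM, SPL, AT and BL LSC. Fcgr4 and Csf1r are highest in BL LSC with AT LSC next among the LSC groups, Plk1 and Asns are lowest in BL LSC, and Mpo is low in BL LSC alone.

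Some kept genes have no test. The authors' table gave no test for 111 of the 8858, and 15 of these had FPKM values apart by 4 times or more. Ctss, the lysosomal protease cathepsin S, was at 293 FPKM in BL LSC and 31.6 in BM LSC, and Cd97, an adhesion receptor of leukocytes, at 149 against 14.4. The paired Ig-like receptor gene Lilra6 is listed at 0 in BL LSC and at 149 FPKM in BM LSC with a flag for too many fragments, so no level in the blood can be read from it. Genes at the edge of the rule were Fhl3 (1.00016 FPKM in BM LSC) just inside and Slc37a1 (0.999949 in BM LSC) just outside, with 0.765 and 0.642 FPKM in BL LSC.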

How the data were processed

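RNA-seq libraries (Qiagen RNeasy Plus RNA, Clontech SMARTer low input and Nextera XT chemistry, per the labels) were trimmed with Trimmomatic 0.32 and quantified with Cufflinks 2.0.2 and Cuffdiff on mm10, per the submitters' processing notes. Aligner and annotation: not given in the sources used here. For each gene and group the authors' files hold 1 pooled FPKM with bounds and 1 estimated count, both deposited by the authors. The authors' deposited table for each of 10 pairs of groups adds a log2 fold, a test statistic (a score with no fixed range), a p-value and a q-value, which equals a Benjamini-Hochberg adjustment over all 10 pairs together to within 4.67e-06. Depths were 8.96e+06 to 1.96e+07 estimated counts per group.

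The deposited columns are pooled, so no test over libraries was computed and the authors' tests were used as deposited. Standard errors were computed as the log2 fold over the statistic. Scaling alternatives subtracted from every log2 fold of BL over BM LSC a shift of -0.37 (centred on the median), -0.069 (total counts) or -0.38 (upper quartile), kept the standard errors and adjusted p-values over all 10 pairs again. This step was tested on simulated data. Starts were converted to count from 1. The 34 kept genes whose FPKM differed between deposited tables took the value of the BL and BM table, and SPL, AT and NBM levels come from the authors' tracking table.

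The members and the 46 gene lists (762 symbols, 754 matched) were chosen with earlier results of these data known. Genes named are the 15 largest folds per direction among called genes at 10 FPKM or more in the higher group and over 3 estimated counts in the lower one, the 10 most abundant called genes per direction, up to 6 called list members with the smallest q and up to 2 members not called with the highest mean FPKM, and 20 genes chosen by name. Predicted and merged entries were skipped, and some genes that the rule names are not reported here. Further list members, families, untested genes and the PU.1 motif were chosen after their values were seen. Promoters are RefSeq, GRCm38.p6, for 14759 entries whose start lay within 500 bases of the deposited gene edge. Python 3.11.15, pandas 2.3.3, SciPy 1.17.1 and Matplotlib 3.10.9 were used.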

Additional observations from a re-analysis of the deposited data

How the results depend on the processing

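The counts of 1028 genes called higher and 2326 called lower kept within 1.5 times under total count scaling, adjustment within the comparison, q under 0.01, a log2 fold size of 1 or more, a mean FPKM of 1 or more, no FPKM filter and without merged entries. Genes called lower fell to 1376 with centred folds and 1341 with upper quartile scaling. An FPKM of 5 or more in either group left 602 higher and 1312 lower. An FPKM of 1 or more in both groups, chosen after seeing the data, left 674 higher and 1603 lower. Both settings test fewer genes. The median log2 fold, -0.43, was -0.32 with a pseudocount of 1 and -0.42 with 0.1. Of 312 named genes with a test, 32 lost their call with centred folds and 20 gained one, and none reversed. No paired analysis was possible because the deposited columns are pooled and carry no replicate number. Leaving out each replicate in turn was not run for the same reason. Genes with a log2 fold size under 0.89 could not be called at this depth, and 363 of 3558 kept genes with a size of 1 or more were not called.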

Other observations

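Among the most abundant genes called lower in BL LSC were Eef1a1, the translation elongation factor (970 against 2049 FPKM), Hspa8, a constitutive chaperone (607 against 1308), and Ppia, cyclophilin A (312 against 723), each with a log2 fold between -1.08 and -1.21 in the authors' deposited table. With centred folds their q values were 0.175, 0.156 and 0.0860, so their calls depend on the scaling. Alox5ap, which helps make leukotrienes (514 against 139 FPKM), Anxa2, a membrane-binding annexin (504 against 86.6), and S100a11 (491 against 182) were among the most abundant genes called higher, and kept that call with centred folds. Apoa1, an apolipoprotein gene, was at 7.58 FPKM in BL and 6.55 in AT LSC but at 81.2 in BM and 164 in SPL LSC. Gpr56, an adhesion receptor of progenitors, was at 10.5 FPKM in BL, 13.95 in AT, 72.9 in SPL and 86.2 in BM LSC.

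Cholesterol genes were mixed. Cyp51 (20.9 against 7.74 FPKM) and Mvd (8.28 against 3.60) were called higher, and Idi1 (4.78 against 17.3), Dhcr7 (2.15 against 6.67) and Lss (2.39 against 7.18) lower, in the same pathway. Hypoxia genes were called higher in 3 of 13 cases, including Hif1a (3.08 against 1.23 FPKM), and lower in 1, Car9 (0.484 against 1.83).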
